A study of Mus musculus with 9 samples.

Results

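The zinc finger genes with the symbols Zfp930 to Zfp999 were followed in RAW264.7 cells, a mouse macrophage line, of 3 genotypes. The set was chosen by symbol, with the change of Zfp985 in both edited genotypes already known, and holds 66 of the 55487 genes in the files. Wild-type macrophages were compared with homozygous C/EBPδ knock-out macrophages and with C/EBPδ ΔTAD macrophages, whose own Cebpd gene lost the stretch for the transactivation domain (TAD) by CRISPR/Cas9 while the DNA-binding part stayed in frame. The knock-out cells carry an out-of-frame deletion obtained with the same guides. All cells were unstimulated, and 3 libraries were sequenced per genotype. Both edited genotypes were expanded from single sorted cells, and the sources do not say if its 3 libraries stem from different clones, so the p-values measure the spread between these libraries only.

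C/EBPδ is a transcription factor that binds CCAAT-containing elements and is known for its part in cytokine production by macrophages. Most of the zinc finger genes studied here code for KRAB zinc finger proteins. A row of C2H2 zinc fingers reads a DNA sequence, and the KRAB domain binds Trim28, which brings in Setdb1 and heterochromatin proteins that silence the site. Many of these proteins silence retrotransposons, and in rodents the genes lie in large clusters of near-identical copies.

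The depth of the 9 libraries was 16113306 to 20981829 counts on genes. The 66 genes together held between 0.029% and 0.0418% of the counts of a library, and their summed level was 331 ± 14.8 CPM (counts relative to the scaled size of the library, SD, n = 3) in wild-type, 399 ± 14.2 CPM in knock-out and 306 ± 23.4 CPM in ΔTAD macrophages. The macrophage identity of the cells was checked with 9 marker genes, of which Mertk had at most 2 counts in a library and the other 8 were at 15.6 CPM or more in every library. The summed level of the 9 lay between 2620 and 2760 CPM in wild-type, between 3630 and 3980 CPM in knock-out and between 6010 and 6160 CPM in ΔTAD macrophages. Most of this rise was Lyz2, with means of 1170, 2110 and 4190 CPM in wild-type, knock-out and ΔTAD. Adgre1, Spi1, Ptprc and Cd68 were also higher in both edited genotypes. Fcgr1 (39.5, 17.8 and 28.9 CPM) and Itgam (34.3, 30.7 and 31.1 CPM) were lower in both, and Csf1r (389, 373 and 447 CPM) was mixed. Markers of T cells, B cells, epithelium, fibroblasts and pluripotent cells had at most 6 counts in a library, with Cd3e, Cd8a, Ms4a1, Epcam, Pdgfra and Pou5f1 at 0 in all 9 libraries. Of the endothelial markers, Pecam1, which macrophages also express, was at 2.29 CPM in wild-type, 0.581 CPM in knock-out and 0.166 CPM in ΔTAD macrophages, while Cdh5 had at most 6 counts. The part of these differences in the results was not tested, and in bulk RNA fewer cells of a type and less RNA per cell cannot be told apart. ΔTAD replicate 1 stood apart from the other libraries, with 11% of its counts on a single gene, CT010467.1. Of its records, 16.28% were set aside as not uniquely aligned, and its scaling factor was 0.888.

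Of the 66 genes, 56 had at least 1 count and 38 passed the filter on low counts. The 28 others could not be tested: 10 of them (Zfp935, Zfp936, Zfp939, Zfp941, Zfp967, Zfp986, Zfp987, Zfp991, Zfp992 and Zfp993) had no count in any library, and the highest of the remaining 18 reached 9 counts in 1 library and 48 counts over all 9 (Zfp976). Because a gene could pass the filter through the genotype in which it was high, the counts of genes given here describe the tested genes only. The genes are spread over 12 chromosomes. Chromosome 4 holds 16 of them within 2.34 Mb, 4 of them tested, chromosome 17 holds 15, of which 14 were tested, and chromosome 2 holds 11, of which 3 were tested. Of the 63 genes with a complete coding sequence in the annotation, 58 code for at least 3 C2H2 fingers, with a median of 11 and a maximum of 21 in these 58, and 55 hold the short KRAB pattern that was searched. All 38 tested genes code for fingers, and 33 of them hold the pattern.

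Near-identical copies limit what 50-base reads can count. For each gene, the share of 50-base windows of its transcripts that occur in no transcript of another gene was computed (windows of its own). In 12 genes fewer than 20% of the windows were their own. None of these 12 passed the filter, 6 had no count, and the highest total was 29 counts over the 9 libraries. Of 22 genes between 20% and 80%, 12 were tested, and of 32 genes at 80% or above, 26 were tested. All 11 genes of chromosome 2 and 13 of the 16 genes of chromosome 4 lay below 80%. In such genes, low expression and reads set aside as not unique cannot be told apart.

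**Figure D1:**
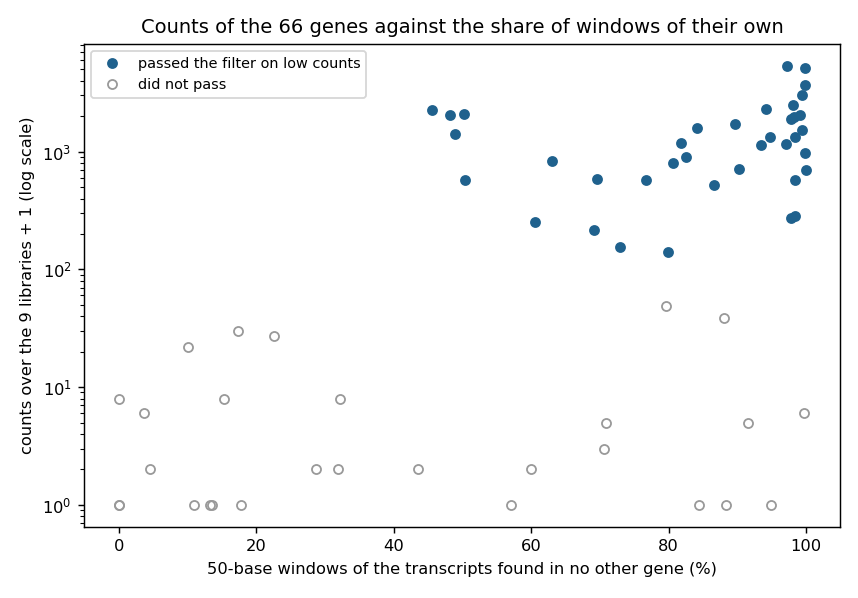
Total counts over the 9 libraries plus 1 (log axis) against the share of 50-base transcript windows found in no other gene, for the 66 genes. Filled points are the 38 genes that passed the filter on low counts, open points are the 28 that did not, and no filled point lies below 20%.

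Levels per exon length in wild-type macrophages, as CPM divided by the exon length in kilobases (RPKM), differed widely among the tested genes. Zfp958 (9.18 ± 0.798 RPKM, SD, n = 3), Zfp961 (8.87 ± 0.29 RPKM) and Zfp930 (6.92 ± 0.387 RPKM), all on chromosome 8, were highest. The wild-type levels of Zfp958 and Zfp961 differed by less than the spread between libraries. Zfp964 (0.233 ± 0.021 RPKM), Zfp979 (0.221 ± 0.069 RPKM) and Zfp947 (0.208 ± 0.0156 RPKM) were lowest, and these levels also lay within each other's spread. Divided by the longest transcript instead of the union of exons, Zfp961 was highest at 14.2 RPKM, followed by Zfp930 at 12 RPKM and Zfp958 at 9.18 RPKM. Zfp985 ranked 14th of the 38 in wild-type macrophages.

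Zfp985 (ENSMUSG00000065999, older name Gm13154) was selected for its opposite changes in the edited genotypes, so its values are a description without a test. The gene is found at chr4:147553277-147585198 (GRCm38, plus strand) and codes for a protein of 519 residues with 10 fingers and the KRAB pattern. The wild-type libraries had 129, 129 and 118 counts of it, the knock-out libraries 369, 371 and 391, and the ΔTAD libraries 22, 29 and 22. The genotypes did not overlap. Scaled to library size, this is a level of 7.01 ± 0.529 CPM (SD, n = 3) for wild-type, 21.3 ± 1.64 CPM for knock-out and 1.33 ± 0.253 CPM for ΔTAD macrophages, which is 2.44, 7.43 and 0.462 RPKM. Knock-out macrophages thus held 305% of the wild-type level (95% counting interval 271% to 343%), and ΔTAD macrophages 18.6% (14.3% to 24%). These intervals cover counting error only. Fitted log2 fold changes were 1.61 (SE 0.0947) in knock-out and −2.42 (SE 0.164) in ΔTAD macrophages, and 4.03 (SE 0.132) between knock-out and ΔTAD macrophages. Of its windows, 84.1% were its own, and its closest copy by shared windows was Zfp988, with 6.6% in common and 1 count in all.

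**Figure D2:**
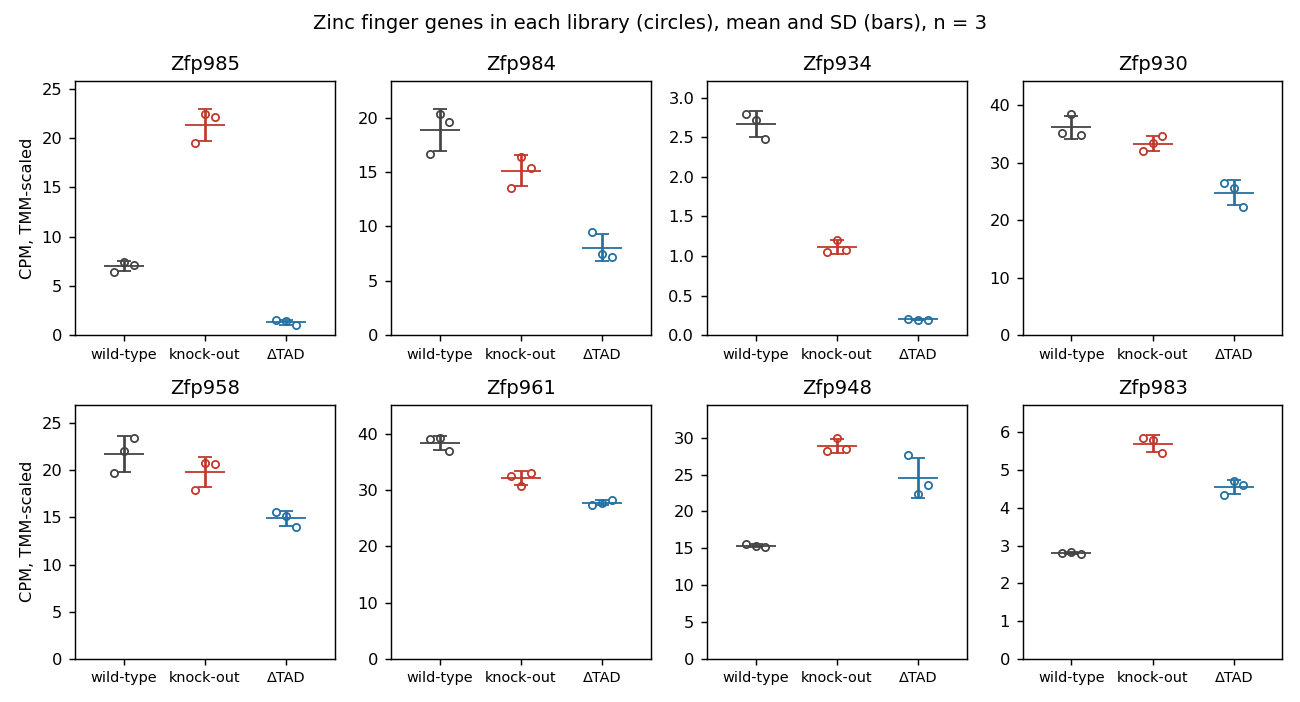
Scaled level (CPM) of 8 zinc finger genes in each library (circles), with the mean (long bar) and SD (whiskers) of the 3 libraries of wild-type, knock-out and ΔTAD macrophages. Zfp985 lies above wild-type in knock-out and below it in ΔTAD macrophages, Zfp984 and Zfp934 step down from wild-type over knock-out to ΔTAD, and Zfp948 and Zfp983 lie above wild-type in both edited genotypes.

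Several genes of the chromosome 4 cluster have start regions that resemble that of Zfp985, although the changes of Zfp984 and Zfp979 differed from its own. The printed windows, from RefSeq (GRCm38.p6), run from 250 bases before to 50 bases after the annotated start of each gene, in the direction of transcription. Capitals mark CCAAT on either strand (written ATTGG on the reverse), the letters of the element after which the C/EBP family is named, and TTGCNNAA, the core letters of a C/EBP site. Zfp985 lies at chr4:147553027-147553326 on the plus strand, Zfp987 at chr4:146097062-146097361 on the plus strand, Zfp979 at chr4:147642459-147642758 on the minus strand and Zfp984 at chr4:147809739-147810038 on the minus strand. The first 3 are shown for their like starts, and Zfp984 as a tested gene of the cluster with a less similar start. Zfp985 was high in knock-out and low in ΔTAD macrophages, Zfp984 was lower in both and Zfp979 was not called. Zfp987 had no count, but only 11% of its windows were its own, so its level is not known.
Zfp985: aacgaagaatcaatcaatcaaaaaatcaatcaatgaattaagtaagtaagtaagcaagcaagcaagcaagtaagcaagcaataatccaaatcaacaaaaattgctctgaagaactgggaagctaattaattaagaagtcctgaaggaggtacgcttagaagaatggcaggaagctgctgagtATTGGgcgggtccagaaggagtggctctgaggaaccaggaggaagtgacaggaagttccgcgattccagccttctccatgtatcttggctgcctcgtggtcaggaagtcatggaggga
Zfp987: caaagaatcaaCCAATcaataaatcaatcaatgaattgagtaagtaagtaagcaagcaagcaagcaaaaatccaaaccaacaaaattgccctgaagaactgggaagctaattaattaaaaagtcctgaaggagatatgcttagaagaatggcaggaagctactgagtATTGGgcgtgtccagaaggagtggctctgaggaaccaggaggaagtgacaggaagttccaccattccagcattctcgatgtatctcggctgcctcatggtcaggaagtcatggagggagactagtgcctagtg
Zfp979: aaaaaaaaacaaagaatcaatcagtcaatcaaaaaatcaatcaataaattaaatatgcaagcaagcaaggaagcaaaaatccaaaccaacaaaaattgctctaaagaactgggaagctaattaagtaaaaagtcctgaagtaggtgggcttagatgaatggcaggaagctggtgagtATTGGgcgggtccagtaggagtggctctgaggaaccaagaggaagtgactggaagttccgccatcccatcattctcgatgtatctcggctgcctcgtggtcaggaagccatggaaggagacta
Zfp984: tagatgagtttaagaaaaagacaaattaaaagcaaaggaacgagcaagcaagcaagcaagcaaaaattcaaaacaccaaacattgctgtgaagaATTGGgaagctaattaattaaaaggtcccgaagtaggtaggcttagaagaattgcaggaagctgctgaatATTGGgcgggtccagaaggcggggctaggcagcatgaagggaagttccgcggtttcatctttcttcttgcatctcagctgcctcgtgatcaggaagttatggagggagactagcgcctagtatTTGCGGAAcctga
Aligned over the window, the start of Zfp985 was 85.1% identical to that of Zfp987, 82.3% to that of Zfp979 and 70.2% to that of Zfp984. The starts of Zfp980 (81.9%), Zfp988 (74.6%) and Zfp981 (72%), which were not tested, were closer than that of Zfp984 and are not shown. Each of the 4 holds a CCAAT on the reverse strand 68 to 86 bases before the start (68 in Zfp985, 83 in Zfp987, 73 in Zfp979 and 86 in Zfp984). TTGCNNAA occurs only in the window of Zfp984, 37 bases after the start. Across the 56 genes of the set that have a window in the table, 43 (76.8%) hold CCAAT, against 37.9% of the 27025 RefSeq windows of the same length, and 3 (5.36%) hold TTGCNNAA, against 10.8%. Near-identical copies are counted separately in these shares. Such matches describe letters, not bound sites, and the paper names the NF-Y family as further binders of CCAAT.

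Within 2 Mb of Zfp985 lie 46 other genes that were tested. Of these, 6 were higher and 10 lower in knock-out than in wild-type macrophages, and 7 were higher and 8 lower in ΔTAD macrophages. These are 34.8% and 32.6% of the 46, against 45.2% and 49.7% of all genes tested. Of the set, 3 genes are among them. Zfp979, also known as Ssm1b, a gene linked to strain-specific DNA methylation of a transgene, starts 89.2 kb downstream and had 13, 15 and 20 counts in wild-type, 16, 16 and 22 in knock-out and 15, 17 and 19 in ΔTAD macrophages, which overlap in full. Zfp984, 257 kb downstream, was lower in both edited genotypes, as described with the knock-out comparison. Zfp933, 295 kb downstream, was at 14.7 ± 1.13 CPM (SD, n = 3) in wild-type, 17.4 ± 0.704 CPM in knock-out and 13.3 ± 0.167 CPM in ΔTAD macrophages. The log2 fold change in knock-out was 0.24 (SE 0.0764, edgeR adjusted p = 0.00987), a call that was lost when any of 6 single libraries was left out and in 6 of the other fits. In ΔTAD its value was −0.14 and not called, and knock-out was higher than ΔTAD (log2 fold change 0.38, edgeR adjusted p = 0.000306). The order of its means was thus that of Zfp985, with smaller differences. On the upstream side, the nearest tested gene starts 277 kb away and was not called. The other 12 zinc finger genes of the set on this chromosome had at most 38 counts over the 9 libraries (Zfp982).

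**Figure D3:**
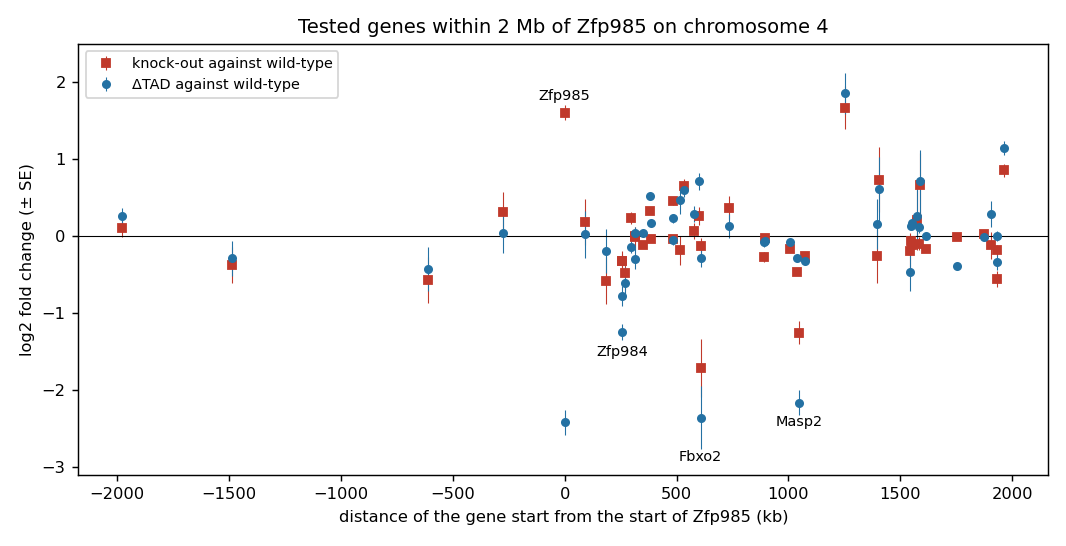
Log2 fold changes against wild-type (± SE) of the tested genes within 2 Mb of Zfp985, by distance of their starts from the start of Zfp985 in kb; squares are knock-out and circles ΔTAD macrophages. Zfp985 is the gene with knock-out at 1.61 and ΔTAD at −2.42, while Zfp984, Masp2 and Fbxo2 lie below 0 in both.

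The knock-out comparison sets cells without C/EBPδ against wild-type cells. The paper proposes that other CCAAT-box factors can compensate in knock-out cells, which was not tested for these genes. A difference from wild-type in either edited genotype does not by itself measure dependence on C/EBPδ. Leaving Zfp985 aside, 12 of the 37 tested genes (32.4%) were higher in knock-out than in wild-type macrophages and 3 (8.11%) were lower, at an adjusted p under 0.01. Among all 14312 genes tested, 22.8% were higher and 22.4% lower, 45.2% in all, so that the total share of the set (40.5%) was near that of all genes. Among the 264 tested genes Zfp1 to Zfp929 the numbers were 61 higher and 39 lower. The median log2 fold change was 0.20 in the 37 genes, 0.06 in Zfp1 to Zfp929 and −0.00 over all genes. Of the 12 higher genes, 10 lie on chromosome 17, and the other two are Zfp933 and Zfp932. These 10 are 71.4% of the 14 tested genes of the set on chromosome 17, near the 66.7% of the other 732 tested genes of that chromosome that were higher.

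Highest in knock-out macrophages were Zfp983, Zfp945 and Zfp948, 3 genes of the chromosome 17 cluster that code for 10, 18 and 15 fingers. Zfp983 was at 2.79, 2.84 and 2.79 CPM in wild-type and at 5.85, 5.80 and 5.44 CPM in knock-out macrophages. Its log2 fold change was 1.02 (SE 0.136, edgeR adjusted p = 6.39e-07). Zfp945 was at 5.43, 6.77 and 6.96 CPM in wild-type and at 11.7, 12.4 and 13.3 CPM in knock-out macrophages, a log2 fold change of 0.97 (SE 0.112, edgeR adjusted p = 6.65e-08). In Zfp948 the 3 wild-type libraries lay between 15.1 and 15.5 CPM and the 3 knock-out libraries above them, at 28.2 CPM or more, a log2 fold change of 0.91 (SE 0.0756, edgeR adjusted p = 1.9e-10). In none of these 3 genes did the libraries of the genotypes overlap. Scaling the libraries within each chromosome gave smaller log2 fold changes of 0.54, 0.49 and 0.43 for Zfp983, Zfp945 and Zfp948, and all 3 were still called. The other 7 genes of chromosome 17 that were higher, Zfp942, Zfp943, Zfp944, Zfp946, Zfp952, Zfp955a and Zfp955b, had log2 fold changes between 0.59 and 0.90. With the libraries scaled within each chromosome these lay between 0.11 and 0.42, and 6 of the 7 calls, all but that of Zfp944, were lost. Zfp932 on chromosome 5, a repressor of the Hedgehog receptor gene Ptch1 that also binds endogenous retroviruses, had 77, 66 and 82 counts in wild-type and 108, 132 and 98 in knock-out macrophages. Its log2 fold change was 0.61 (SE 0.164, edgeR adjusted p = 0.00289), and it shares 34.9% of its windows with its paralog Gm15446. The call of Zfp932 was lost without wild-type replicate 1, wild-type replicate 2 or knock-out replicate 2.

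Lower in knock-out macrophages were Zfp934, Zfp984 and Zfp961, whose ΔTAD values are given beside them. Both comparisons use the same wild-type libraries. Zfp934 (ENSMUSG00000074865, chr13:62479827-62571199, minus strand) had 56, 47 and 41 counts in wild-type, 20, 20 and 19 in knock-out and 3, 4 and 4 in ΔTAD macrophages. The libraries of the 3 genotypes did not overlap. Knock-out macrophages held 41.5% of its wild-type level (95% counting interval 30.1% to 56.6%) and ΔTAD macrophages 7.33% (3.58% to 13.5%). The log2 fold changes were −1.26 in knock-out (SE 0.214, edgeR adjusted p = 2.04e-05) and −3.72 in ΔTAD macrophages (SE 0.304, edgeR adjusted p = 1.26e-10). Zfp934 overlaps exons of Zfp935 on the same strand, which had no count, and 69.1% of its windows were its own.

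Zfp984 (ENSMUSG00000078495, chr4:147753974-147809788, minus strand, older name Gm13157) was at 16.6, 20.3 and 19.6 CPM in wild-type, 13.6, 16.4 and 15.4 CPM in knock-out and 9.51, 7.44 and 7.19 CPM in ΔTAD macrophages. Each genotype lay below the one before. The fit gave a log2 fold change of −0.32 in knock-out (SE 0.0943, edgeR adjusted p = 0.00602) and −1.25 in ΔTAD macrophages (SE 0.105, edgeR adjusted p = 2.34e-10). The call in knock-out was lost in 4 of the 9 fits that left out a library (wild-type replicate 2 or 3, knock-out replicate 1 or 3), with DESeq2 and with scaling within each chromosome, whereas the call in ΔTAD was made in every fit. Only 45.5% of its windows were its own. It shared most windows with Gm13212 (46.9%), which had 15 counts over the 9 libraries. Gm20707, which overlaps its exons on the same strand, was also lower in ΔTAD macrophages (log2 fold change −0.78). How reads in the shared exons were counted is not known. Zfp961 (ENSMUSG00000052446, chr8:71951038-71993792, plus strand) was at 39.0, 39.3 and 37.0 CPM in wild-type, 32.5, 30.8 and 33.1 CPM in knock-out and 27.4, 27.7 and 28.3 CPM in ΔTAD macrophages. Its log2 fold changes were −0.26 (SE 0.0546, edgeR adjusted p = 0.000266) and −0.47 (SE 0.0554, edgeR adjusted p = 8.53e-08), smaller than those of the other two genes and again without overlap between genotypes. Its exons overlap Cyp4f18 on the opposite strand.

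**Figure D4:**
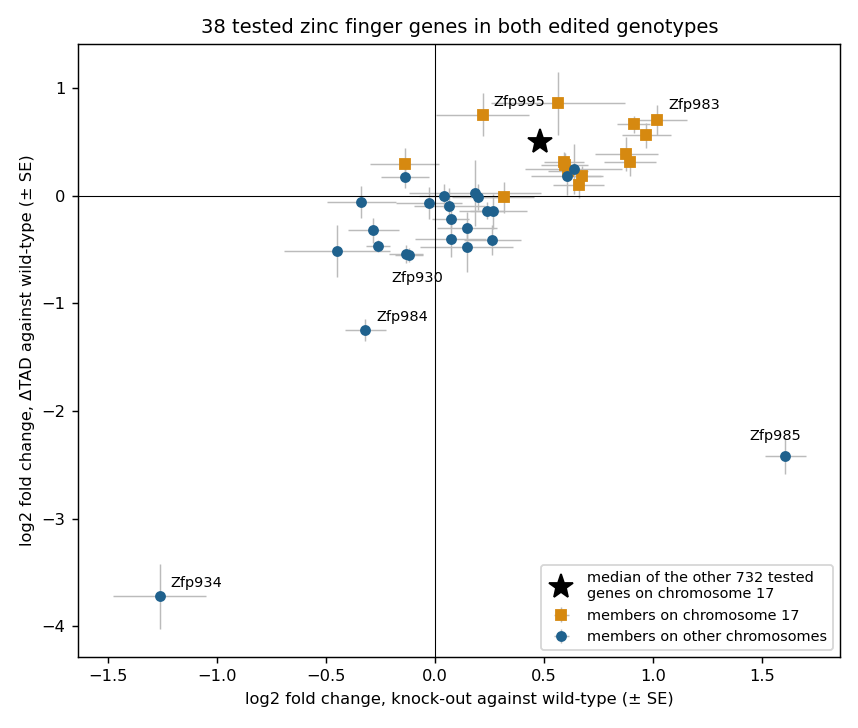
Log2 fold changes against wild-type (± SE) of the 38 tested zinc finger genes, knock-out on the x axis and ΔTAD on the y axis; squares are genes on chromosome 17, circles genes on other chromosomes, and the star is the median of the other 732 tested genes of chromosome 17 (0.48 and 0.50). Both axes use the same wild-type libraries, Zfp985 stands alone at the lower right and Zfp934 at the lower left, and the squares gather at the upper right.

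The ΔTAD comparison sets cells with a C/EBPδ that can bind DNA but lacks its transactivation domain against wild-type cells. Of the 37 tested genes, 5 (13.5%) were higher and 5 (13.5%) lower in ΔTAD than in wild-type macrophages. Among all genes tested, 26.3% were higher and 23.4% lower, 49.7% in all, and among Zfp1 to Zfp929 29 of 264 were higher and 85 lower. The median log2 fold change was −0.01 in the 37 genes and −0.11 in Zfp1 to Zfp929. Without ΔTAD replicate 1, which stood apart, 3 of the 37 were higher and 5 lower.

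All 5 genes that were higher in ΔTAD macrophages lie on chromosome 17, and none of them was called when the libraries were scaled within each chromosome, where the value of Zfp946 turned to −0.19. Zfp995 was at 2.64, 2.43 and 2.3 CPM in wild-type and at 5.88, 3.36 and 3.66 CPM in ΔTAD macrophages, with replicate 1 the highest. Its log2 fold change of 0.75 (SE 0.199, edgeR adjusted p = 0.00221) was 0.48 without this library and no longer called (edgeR adjusted p = 0.0326). Zfp983 was at 4.34, 4.71 and 4.62 CPM in ΔTAD macrophages, a log2 fold change of 0.70 (SE 0.141, edgeR adjusted p = 0.000134). Zfp948 was at 27.6, 22.4 and 23.5 CPM, a log2 fold change of 0.66 (SE 0.0771, edgeR adjusted p = 6.28e-08). The ΔTAD levels of Zfp983 and Zfp948 did not overlap their wild-type levels, and both were called without any 1 library. The values of Zfp945 and Zfp946 were 0.56 and 0.31, the latter call being lost without ΔTAD replicate 1 (log2 fold change 0.22, edgeR adjusted p = 0.0583), without ΔTAD replicate 2 and without wild-type replicate 1 or 2.

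The 5 genes that were lower in ΔTAD macrophages are Zfp934, Zfp984, Zfp930, Zfp958 and Zfp961, of which the last 3, all on chromosome 8, had the highest wild-type levels per exon length of the set. Zfp930 (ENSMUSG00000059897, chr8:69209038-69230536, plus strand, 12 fingers) was at 35.1, 38.4 and 34.8 CPM in wild-type and at 26.5, 25.6 and 22.3 CPM in ΔTAD macrophages. This is a log2 fold change of −0.55 (SE 0.0666, edgeR adjusted p = 1.24e-07). The knock-out libraries were at 31.9, 33.4 and 34.6 CPM, and the gene was not called there (log2 fold change −0.12). Zfp958 (ENSMUSG00000058748, chr8:4613167-4630231, plus strand, 13 fingers) was at 19.7, 22 and 23.4 CPM in wild-type and at 15.5, 15.2 and 14 CPM in ΔTAD macrophages, a log2 fold change of −0.54 (SE 0.0818, edgeR adjusted p = 3.5e-06). These 5 calls were made in all 9 fits that left out a library.

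In the direct comparison, 15 of the 37 genes (40.5%) were higher in knock-out than in ΔTAD macrophages and none was lower. Over all genes tested, 13.9% were higher in knock-out and 19.1% lower, 33.0% in all. Of the 264 genes Zfp1 to Zfp929, 80 (30.3%) were higher and 6 (2.27%) lower. In 32 of the 37 genes the log2 fold change was above 0, with a median of 0.33, against 0.16 in Zfp1 to Zfp929 and −0.03 over all genes. The count of 0 lower genes comes from edgeR at an adjusted p under 0.01. DESeq2 and limma-voom gave 0 as well, and at an unadjusted p under 0.05 edgeR had 3 of the 37 lower (Zfp954, Zfp994 and Zfp995, named after their values were seen). Without the filter on low counts 2 genes were lower, and 1 or 2 were lower without knock-out replicate 2, ΔTAD replicate 2 or ΔTAD replicate 3. Without ΔTAD replicate 1, 19 were higher, and without ΔTAD replicate 3, 9. Between 10 and 19 of the 37 were called when any 1 library was left out, and 9 of the 15 were called in all 9 such fits.

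Zfp934 had the largest difference, with a log2 fold change of 2.46 (SE 0.366, edgeR adjusted p = 7.78e-06), followed by Zfp984 with 0.93 (SE 0.11, edgeR adjusted p = 2.92e-07). Both had been lower than wild-type in knock-out as well, so that knock-out macrophages stood between wild-type and ΔTAD. Zfp949 on chromosome 9, all of whose windows were its own, was at 5.06, 5.14 and 5.55 CPM in knock-out and at 3.64, 3.31 and 2.998 CPM in ΔTAD macrophages, a log2 fold change of 0.68 (SE 0.138, edgeR adjusted p = 0.000337). Its wild-type libraries lay between these, at 4.04, 4.51 and 4.6 CPM, and neither edited genotype was called against wild-type. The smallest called differences were those of Zfp961 (0.21, edgeR adjusted p = 0.00439), Zfp948 (0.25, edgeR adjusted p = 0.00544) and Zfp950 (0.29, edgeR adjusted p = 0.00891), and each of these 3 calls was lost in at least 4 fits without a library. By the order of the 3 means, 14 of the 37 genes were highest in knock-out and lowest in wild-type, 10 were highest in knock-out and lowest in ΔTAD, and 8 were highest in wild-type and lowest in ΔTAD. The other 5 were divided over 3 further orders, and 19 of the 37 were called against wild-type in neither edited genotype. These counts were not set against all genes, and the orders also use differences smaller than their SE. Most of the 14 lie on chromosome 17, where genes outside the set were also higher in both edited genotypes.

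Genes of chromosome 17 were shifted upward as a whole. For the other 732 tested genes of this chromosome the median log2 fold change was 0.48 (knock-out) and 0.50 (ΔTAD), and 488 and 464 of them were higher, where edgeR called 37 and 50 lower. The 14 tested zinc finger genes of the set there had medians of 0.64 and 0.31, with 10 and 5 genes higher and 0 lower in both (edgeR, also 0 lower at an unadjusted p under 0.05). They were therefore set against their own chromosome, by scaling the libraries on the genes of each chromosome separately. Scaled in this way, 4 of the 14 were higher in knock-out macrophages (Zfp944, Zfp945, Zfp948 and Zfp983) and Zfp994 was lower (log2 fold change −0.62). In ΔTAD macrophages edgeR called 0 genes higher (also 0 at an unadjusted p under 0.05) and 3 lower, namely Zfp959 (−0.51), Zfp942 (−0.40) and Zfp955b (−0.31). Over all 37 genes, this scaling gave 6 higher and 3 lower in knock-out, and 0 higher and 8 lower in ΔTAD macrophages. What shifted the chromosome was not tested. Zfp955a and Zfp955b, which lie side by side in opposite directions, share 51.8% of the windows of Zfp955a, so their reads can be assigned only by the rest. Their RefSeq windows, at chr17:33255096-33255395 (minus strand) and chr17:33289294-33289593 (plus strand), are identical (100%) and are shown once for this reason. They hold CCAAT at 218, 63 and 26 bases before the start (capitals).
Zfp955a: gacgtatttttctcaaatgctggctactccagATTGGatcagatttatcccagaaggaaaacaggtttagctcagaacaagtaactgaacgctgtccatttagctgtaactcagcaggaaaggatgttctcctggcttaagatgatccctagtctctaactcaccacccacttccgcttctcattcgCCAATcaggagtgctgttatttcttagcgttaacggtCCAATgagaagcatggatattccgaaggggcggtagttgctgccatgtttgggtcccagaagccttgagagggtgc

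Between the edited genotypes, the chromosome 17 genes of the set had a higher median than their neighbours, and the genes of the set on other chromosomes leaned the same way. The median log2 fold change of knock-out against ΔTAD was 0.32 in the 14 genes and −0.04 in the other 732 genes of chromosome 17, and 7 of the 14 (50%) were higher in knock-out against 15.4% of the 732. Zfp942, Zfp943, Zfp944, Zfp945, Zfp948, Zfp955a and Zfp955b are the 7 genes. Their direction was not shared by Zfp995, Zfp947 and Zfp994, which lie among them (chr17:21879570-22225616) and had values of −0.53, −0.29 and −0.43, none of them called. Of the 23 tested genes of the set on other chromosomes, edgeR called 8 higher in knock-out than in ΔTAD macrophages and 0 lower (1 at an unadjusted p under 0.05). The 8 are 34.8%, against 13.9% of all genes tested and 30.3% of Zfp1 to Zfp929, so the direction was not particular to the set. The median of the 23 was 0.38, so the direction was not particular to chromosome 17. Against wild-type, 2 of these 23 were higher and 3 lower in knock-out (21.7% in all, against 45.2% of all genes tested). In ΔTAD macrophages edgeR called 0 higher (also 0 at an unadjusted p under 0.05) and 5 lower, again 21.7%, against 49.7% of all genes.

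**Figure D5:**
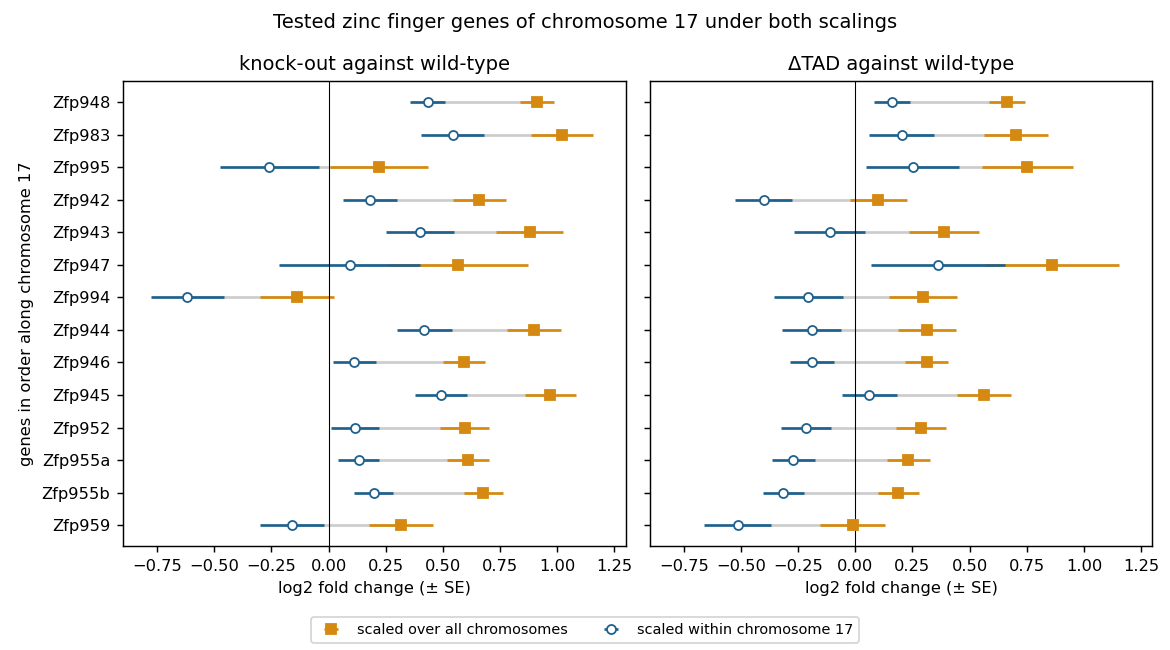
Log2 fold changes against wild-type (± SE) of the 14 tested zinc finger genes of chromosome 17, in their order along the chromosome, in knock-out (left) and ΔTAD macrophages (right). Filled squares are scaled over all chromosomes and open circles within chromosome 17, which moves every gene down by about the median of the chromosome.

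Away from chromosomes 4 and 17, 20 genes of the set were tested. Against wild-type edgeR called 3 of them for knock-out (15%, against 45.2% of all genes) and 4 for ΔTAD (20%, against 49.7%). Between the edited genotypes it called 6 (30%, against 33.0%). All 6 were higher in knock-out, where 13.9% of all genes were higher and 19.1% lower. None of the 3 tested genes of chromosome 2 (Zfp931, Zfp970 and Zfp971) was called by edgeR in any comparison, and their log2 fold changes lay between −0.34 and 0.05. Of the 5 tested genes of the set on chromosome 8, 1 was lower in knock-out and 3 in ΔTAD macrophages. Among the other 751 tested genes of that chromosome, 20.4% were lower in knock-out and 17.3% in ΔTAD macrophages. Over all genes tested, these shares were 22.4% and 23.4%. Zfp963 and Zfp964, the remaining genes of these 5, had 17 to 40 counts per library and were not called.

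KRAB zinc finger proteins act through shared partners, and 28 of 30 listed co-repressor genes were tested, while Atf7ip2 and Dnmt3b had 0 counts. In knock-out macrophages 4 of the 28 were higher and 8 lower (42.9% in all), and in ΔTAD macrophages 5 were higher and 9 lower (in all 14 of 28), shares near those of all genes. Trim28, the partner that the KRAB domain binds, was at 434 ± 3.14 CPM (SD, n = 3) in wild-type, 367 ± 4.79 CPM in knock-out and 404 ± 12.6 CPM in ΔTAD macrophages. It fell by 0.24 on the log2 scale in knock-out (SE 0.0338, edgeR adjusted p = 1.5e-06), and its value in ΔTAD was −0.10 (SE 0.0337, edgeR adjusted p = 0.0128), which was not called. Setdb1, the histone methyltransferase that Trim28 recruits, was called in neither genotype (0.06 and 0.10). Resf1, a regulator of retrotransposon silencing by Setdb1, had the largest value of the list, 0.73 in knock-out and 0.88 in ΔTAD macrophages. Mta1, a subunit of the NuRD deacetylase complex, had −0.59 and −0.33. Uhrf1, which guides DNA methylation to replicated DNA and lies on chromosome 17, had 0.48 and 0.38. Fam208a (Tasor), a subunit of the HUSH silencing complex, had −0.43 in ΔTAD macrophages and was not called in knock-out (0.09). Between the edited genotypes 3 co-repressor genes were higher in knock-out and 7 lower, 35.7% in all, near the 33.0% of all genes tested. The largest values were 0.52 for Fam208a, 0.24 for Smarcad1, a chromatin remodeller, and −0.27 for Mta1.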

How the data were processed

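RNA of unstimulated RAW264.7 macrophages was sequenced as single 50-base reads after removal of ribosomal RNA. Trimmomatic (trimming), Hisat2 (alignment, build GRCm38) and HTSeq (counting per Ensembl gene) were the tools of the authors. They deposited 1 list of raw counts per library, without normalization or filter. The versions differ between the paper and the submitters' notes, and the mode and strand setting of the counting are not given in the sources used here, so overlapping genes, antisense genes and copies are uncertain. Records not assigned to a gene (5 tally lines) were left out, and 46.65% to 53.23% of the records were counted on genes.

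The deposited counts went into edgeR 4.0.16 under R 4.3.3 (filterByExpr with a minimum count of 10 and a total of 15, TMM scaling, 1 quasi-likelihood model of the 9 libraries with a mean per genotype). Benjamini-Hochberg adjustment covered all 14312 tested genes, and an adjusted p under 0.01 was called. An SE is the size of a log2 fold change over the root of its F statistic. CPM are scaled to the TMM library size, RPKM divide them by the union of exons, and 3 counts, the floor of detection, are 0.143 to 0.21 CPM. Counting intervals are at 95%. No 2 libraries of a genotype were duplicates. Depth limits genes of few counts, such as Zfp979 and Zfp947, to wide errors. The fit was tested on simulated counts.

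The set, the gene lists and the tests were chosen with earlier results of these data known, and Zfp985 was counted apart. By the naming rule, values per library go to Zfp985, to the 3 called genes with the highest and the 3 with the lowest log2 fold change in each comparison, and to genes called in both edited genotypes with a log2 fold change of 1 or more in size. The 3 highest and lowest wild-type levels, the tested genes near Zfp985 (within 2 Mb) and the 3 most changed called genes of a list are also named. Symbols, positions, fingers (C-x2-C-x12-H-x3to5-H) and the KRAB pattern (DV-x3-F-x3-EW) were taken from GENCODE M21 and its translated coding sequences, and windows were compared among its transcripts, not over the genome. 260 identifiers had no annotation. As alternatives, DESeq2 1.42.0 and limma-voom (limma 3.58.1) were run, with other scalings and filters, pairwise models, a replicate block, other thresholds and leaving out each library. Values of 2 listed genes are not reported here.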

Additional observations from a re-analysis of the deposited data

How the results depend on the processing

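The replicate numbers of the labels did not pair the libraries: libraries with the same number had correlations of their deviations between −0.07 and 0.02, and 1 of the 9 was closest to its own number. With the number as a replicate block, 14, 10 and 15 of the 37 genes were called in knock-out, in ΔTAD (both against wild-type) and between the edited genotypes, where 15, 10 and 15 were called without it. Leaving out each library in turn gave 13 to 15, 8 to 12 and 10 to 19. Among DESeq2, limma-voom, both other library scalings, both other filters and the pairwise models, the numbers (of 36 to 55 genes in the fit where the filter differed) lay between 13 and 15, 9 and 13, and 13 and 19. Scaled within each chromosome, 9 genes were called in knock-out (6 higher, 3 lower), 8 in ΔTAD (0 higher, 8 lower) and 18 between the edited genotypes (18 higher). This scaling changed the sign of 8 values on chromosome 17 and of Zfp979 in ΔTAD, of 2 in knock-out (Zfp959 and Zfp995) and of 0 between the edited genotypes. In 3 of these, all in ΔTAD, the value was called before or after: Zfp942 (−0.40), Zfp946 (−0.19) and Zfp955b (−0.31). At an adjusted p under 0.05, 18 and 26 genes were called in the comparisons with ΔTAD. Requiring a log2 fold change of 1 or more in size left 2, 2 and 1, which are Zfp934 and Zfp983, Zfp934 and Zfp984, and Zfp934. Scaled within its chromosome, Zfp983 was at 0.54 in knock-out. Of the calls named here, 12 of 15, 8 of 10 and 9 of 15 were made in all 9 fits that left out a library. Zfp985 was selected for its opposite changes in these same libraries, so its values across the fits are a description and no support. It kept its directions in every fit. Its log2 fold change without any 1 library lay between 1.55 and 1.68 in knock-out, between −2.54 and −2.26 in ΔTAD and between 3.86 and 4.15 between the edited genotypes.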
